A study of Homo sapiens with 15 samples.

Results

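The RNA levels of 9 genes that encode cadherins and the catenins bound to them, *CDH1*, *CDH2*, *CDH3*, *CDH4*, *CDH11*, *CDH13*, *CTNNA1*, *CTNNB1* and *CTNND1*, were examined in triple negative breast cancer cell lines. They were taken by gene symbol from a table of 33158 genes, and all 9 were found. The table holds FPKM values, which are fragment counts scaled to transcript length and library size, for 15 libraries in 5 groups of 3. Cancer stem cells (CSCs), defined by surface staining as CD44+ and CD24-/low, and the remaining non-CSCs were sorted by cytometry from SUM149PT (SUM149 in the sample labels) and from HCC1937. SUM159PT (SUM159 in the labels) was sequenced without sorting and carries the CSC label because the line consists mostly of such cells. Triple negative lines lack the estrogen and progesterone receptors and HER2 amplification, and the CSC state here rests on the sort markers alone. mRNA was isolated with oligo(dT) beads.

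Cadherins are transmembrane proteins that bind the same cadherin on the neighbouring cell and so hold adherens junctions together. Their cytoplasmic tails bind p120-catenin (*CTNND1*), which keeps them at the surface, and beta-catenin (*CTNNB1*), to which alpha-catenin (*CTNNA1*) is attached as the link to actin. Loss of the epithelial *CDH1* with gain of the neural and mesenchymal *CDH2* is known as cadherin switching, and it is commonly followed in breast cancer cells as a mark of the epithelial-mesenchymal transition. The 9 genes are not uniform. CDH1, CDH2, CDH3 and CDH4 are classical type I cadherins, CDH11 is a type II cadherin, and CDH13 is held at the membrane by a lipid anchor and has no tail for catenins.

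The libraries of SUM159PT stood apart from the rest. Their FPKM values summed to between 634746 and 652082, those of a sorted library to between 291276 and 366532. More than 1 FPKM was reached by 8534 to 8670 genes in SUM159PT and by 11249 to 11997 in the sorted libraries, so the tests of the 9 genes in SUM159PT are given below under several scalings. Values of other genes in SUM159PT are given as deposited, and orders of levels that include SUM159PT hold for FPKM as deposited. The sort markers were read next, since they check the fraction labels. *CD24* was 7.97, 7.64 and 7.61 FPKM in the SUM149PT CSC libraries and 146.8, 137.4 and 134.3 FPKM in the non-CSC libraries. HCC1937 libraries had 23.6, 22.5 and 23.9 FPKM in CSCs and 166.5, 141.4 and 142.2 FPKM in non-CSCs. The RNA therefore separated the fractions in the direction of the gate in both lines, and the SUM159PT libraries, at 0.759, 0.682 and 0.745 FPKM, lay under all sorted ones. *CD44* RNA was 84.4 ± 2.08 FPKM (SD, n = 3) in SUM149PT CSCs, 64.5 ± 2.86 in their non-CSCs, 106.3 ± 6.33 in HCC1937 CSCs and 97.8 ± 3.98 in HCC1937 non-CSCs, less than 2-fold apart within each line. In SUM159PT, *CD44* was 28.6, 29.4 and 28.4 FPKM, the lowest of the 5 groups and lower than in SUM149PT CSCs (log2 fold change -1.55, adjusted p = 1.4e-06) and HCC1937 CSCs (-1.88, adjusted p = 1.78e-06) as deposited. Its *CD24* RNA was thus on the side of the CSC label, and its *CD44* RNA was not high.

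*CDH1* encodes E-cadherin, the main cadherin of epithelial junctions. Its FPKM was 3.37, 3.04 and 3.56 in SUM149PT CSCs and 80.3, 80.9 and 73.7 in SUM149PT non-CSCs. HCC1937 had 15.4, 17.4 and 17.8 FPKM in CSCs and 83.1, 79.3 and 85.9 FPKM in non-CSCs, and SUM159PT had 0.0457, 0.0701 and 0.0886 FPKM. The CSC libraries of each line were all below their non-CSC libraries, and the non-CSC libraries of the 2 lines overlapped. From the highest group to the lowest the order was HCC1937 non-CSC, SUM149PT non-CSC, HCC1937 CSC, SUM149PT CSC and SUM159PT. Mean FPKM was 23.6-fold lower in CSCs than in non-CSCs of SUM149PT and 4.9-fold lower in those of HCC1937. In limma on log2(FPKM + 0.1), the log2 fold change of CSC against non-CSC was -4.52 (SE 0.082, adjusted p = 1.51e-06) in SUM149PT. It was -2.29 (SE 0.083, adjusted p = 0.000128) in HCC1937. Since sorted fractions are bulk samples, fewer cells that express a gene and less RNA per cell cannot be told apart, here or for the genes that follow.

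*CDH3* encodes P-cadherin, found in basal epithelial and myoepithelial cells of the breast. The gene lies beside *CDH1* on chromosome 16 (chr16:68645310-68733771 and chr16:68737292-68835537 in GRCh38.p14), with 3520 bases between them. In SUM149PT it measured 4.58, 4.54 and 5.17 FPKM in CSCs and 94.6, 93.9 and 91.7 FPKM in non-CSCs. HCC1937 CSCs held 51.9, 54.3 and 52.0 FPKM and HCC1937 non-CSCs 192.8, 188.7 and 185.5 FPKM, whereas SUM159PT was at 0.168, 0.208 and 0.146 FPKM. None of the groups overlapped. The fold change between the fractions was close in size to that of *CDH1* in SUM149PT, with a log2 value of -4.27 (SE 0.070, adjusted p = 1.49e-06). In HCC1937 the log2 fold change of *CDH3* was -1.84 (SE 0.061, adjusted p = 0.000128), and HCC1937 CSCs still had 11.1-fold more *CDH3* RNA than SUM149PT CSCs.

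*CDH2* encodes N-cadherin, which is normally found in neural and mesenchymal cells. It was 21.4, 21.9 and 22.0 FPKM in SUM149PT CSCs against 3.33, 3.18 and 3.42 FPKM in their non-CSCs. HCC1937 CSCs gave 28.5, 27.7 and 28.2 FPKM, and HCC1937 non-CSCs gave 6.83, 8.88 and 8.53 FPKM. The SUM159PT libraries, at 2.66, 2.66 and 3.27 FPKM, overlapped the SUM149PT non-CSCs, and no other neighbours in the order of levels overlapped. *CDH2* rose in the CSCs of both lines, by a log2 fold change of 2.68 (SE 0.055, adjusted p = 1.81e-06) in SUM149PT. The value in HCC1937 was 1.80 (SE 0.113, adjusted p = 0.000417). Mean FPKM was 6.58-fold and 3.49-fold higher, respectively.

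**Figure D1:**
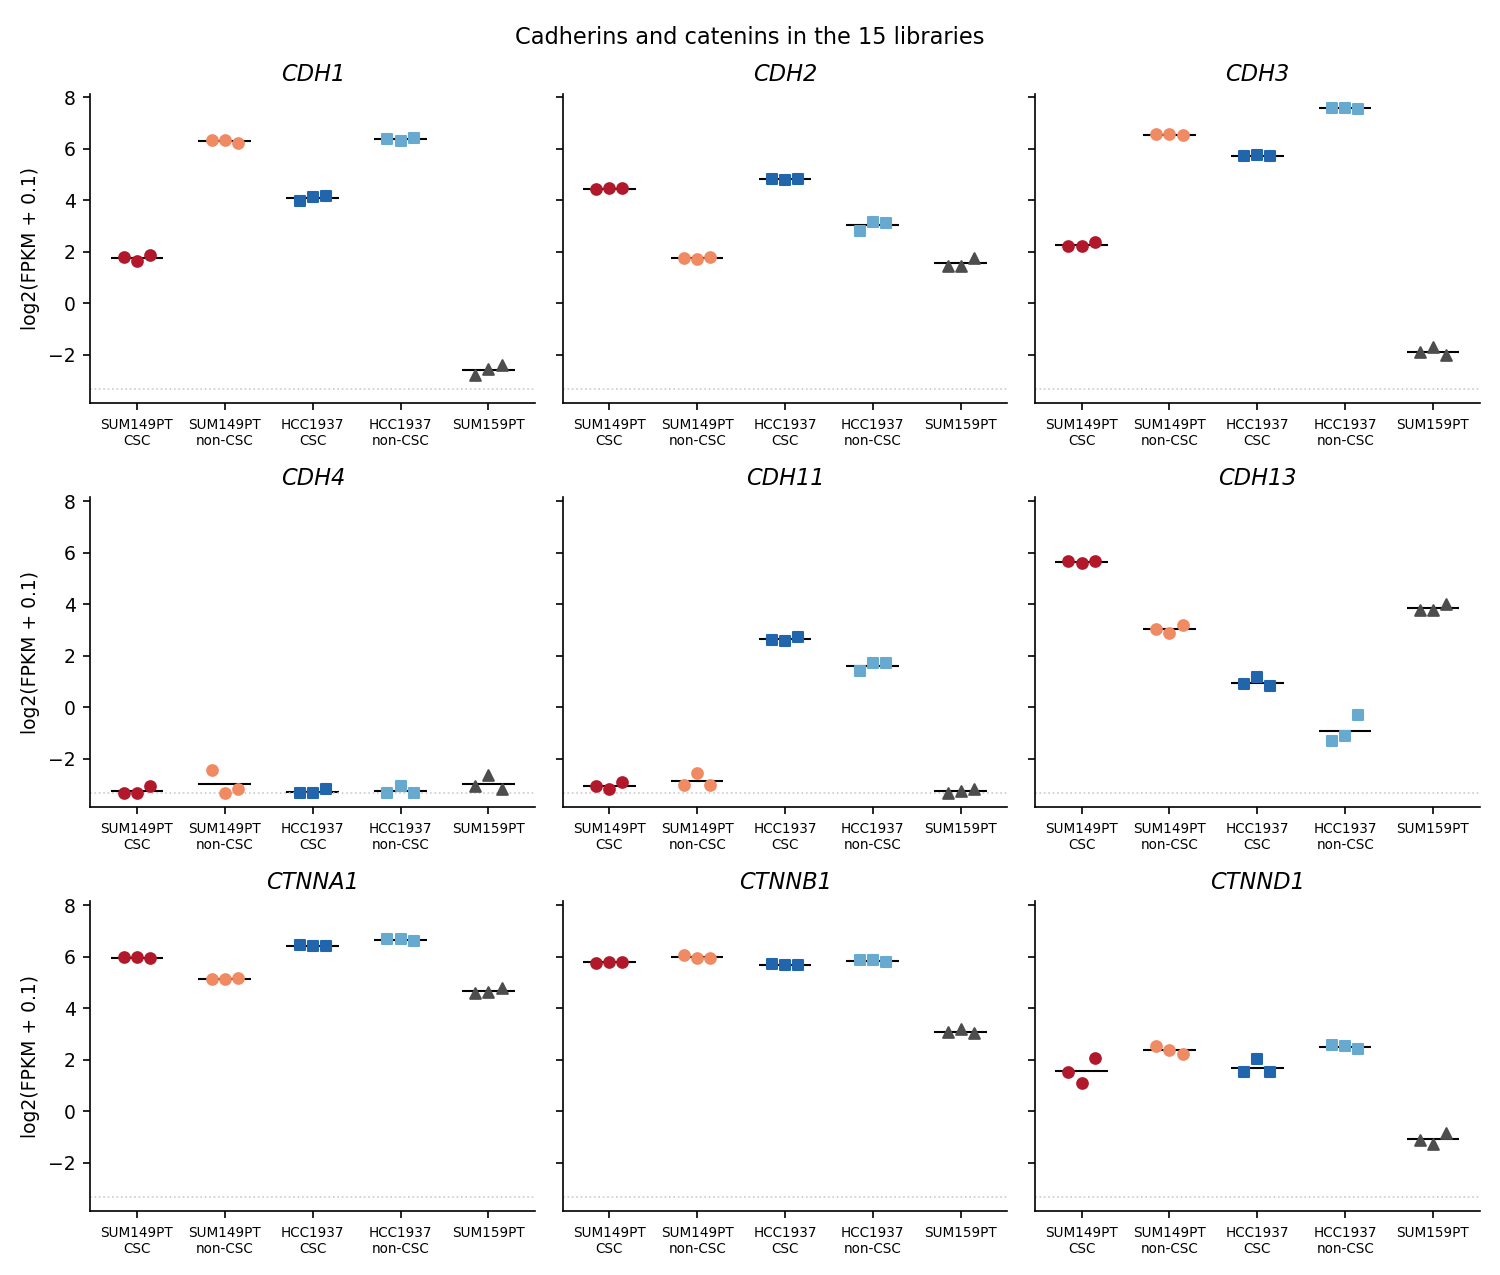
Level of each of the 9 genes as log2(FPKM + 0.1) in the 15 libraries. Each symbol is 1 library, the bar is the mean of the 3 libraries on this scale, and the dotted line marks 0 FPKM. *CDH1* and *CDH3* were lower and *CDH2* and *CDH13* higher in the CSCs than in the non-CSCs of each sorted line, while SUM159PT had *CDH1* under 0.1 FPKM.

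The ratio of *CDH2* to *CDH1* FPKM describes the switch within a library, and any factor that scales a whole library drops out of it. It was 6.36, 7.21 and 6.18 in SUM149PT CSCs and 0.0414, 0.0392 and 0.0464 in SUM149PT non-CSCs. The HCC1937 libraries gave 1.85, 1.59 and 1.59 in CSCs and 0.0822, 0.112 and 0.0993 in non-CSCs. All CSC libraries were thus above a ratio of 1 and all non-CSC libraries below it. SUM159PT had ratios of 58.2, 37.9 and 37.0, which rest on *CDH1* values near 0. Its *CDH2* mean of 2.86 FPKM was the lowest of the 5 groups as deposited. With the GC trend of each library removed, *CDH2* in SUM159PT was under 2-fold below SUM149PT CSCs (-0.87). In a separate fit the non-CSCs of that line were 2.66 below those CSCs. Other scalings put *CDH2* in SUM159PT at -2.13 (upper quartile), -2.38 (quantile) and -3.99 (equal sums) against SUM149PT CSCs. SUM149PT CSCs exceeded their non-CSCs by 2.40 to 2.82 over the other settings. The order of SUM159PT and SUM149PT non-CSCs thus depends on the scaling, and they were not tested against each other.

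**Figure D2:**
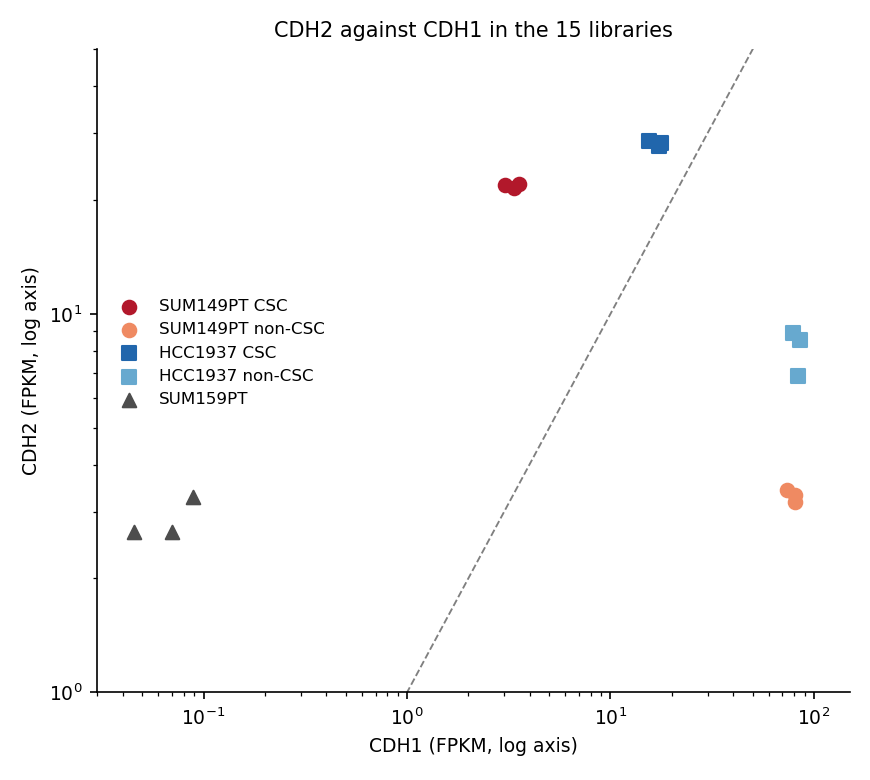
*CDH2* against *CDH1* in FPKM, both on log axes, with 1 symbol per library. The dashed line marks equal FPKM of the 2 genes. The 9 libraries labelled CSC lie above the line and the 6 non-CSC libraries below it. SUM159PT has *CDH2* near that of the SUM149PT non-CSCs in FPKM as deposited, and this closeness depends on the scaling.

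Taking *CDH1*, *CDH2* and *CDH3* together showed that the total was not kept constant. Their summed FPKM was 29.9 ± 0.76 (SD, n = 3) in SUM149PT CSCs and 175 ± 5.37 in SUM149PT non-CSCs. HCC1937 CSCs had 97.8 ± 1.76 and HCC1937 non-CSCs 279.8 ± 2.90, and SUM159PT had 3.11 ± 0.349. The gain in *CDH2* was therefore smaller in FPKM than the loss of *CDH1* and *CDH3*. *CDH2* supplied 72.9 ± 1.35% of the sum in SUM149PT CSCs and 28.8 ± 0.95% in HCC1937 CSCs. In the corresponding non-CSCs its share was 1.89 ± 0.127% and 2.89 ± 0.418%. *CDH3* remained the most abundant of the 3 in HCC1937 CSCs, with 53.9 ± 0.819% of the sum. SUM149PT CSCs, in which *CDH3* made up 15.9 ± 0.757%, differed in this from HCC1937 CSCs.

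**Figure D3:**
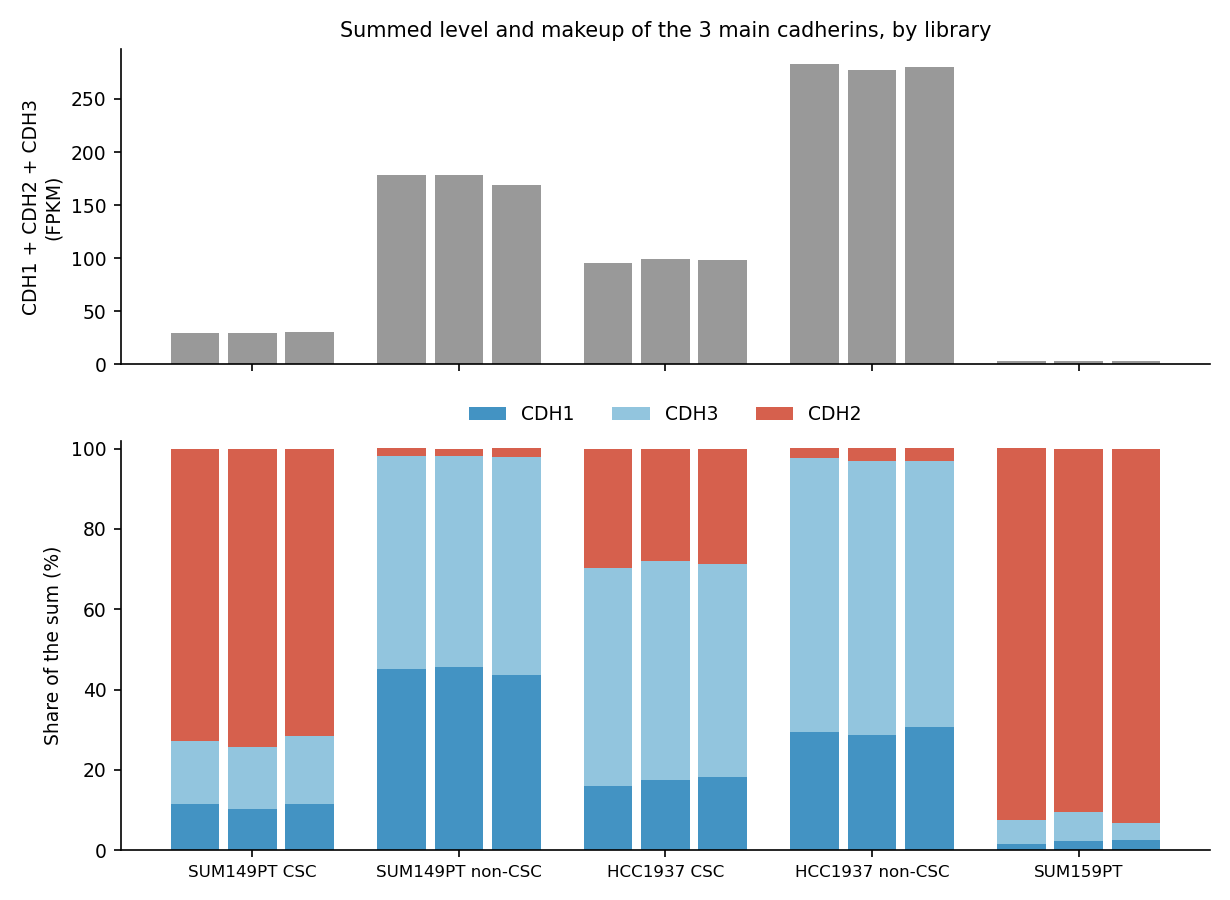
Summed FPKM of *CDH1*, *CDH2* and *CDH3* (top, bars from 0) and the percent of that sum from each gene (bottom), with 1 bar per library in the order of replicate number. *CDH2* is the largest part in SUM149PT CSCs and SUM159PT, while *CDH3* is the largest part in the other 3 groups, and the sum is lowest in SUM159PT as deposited.

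The promoter windows of the genes were read where a reference held them, because *CDH1* and *CDH2* moved in opposite directions and the repressors of *CDH1* bind E-boxes. RefSeq (GRCh38.p14) windows of the 250 bases before a listed start were found for 4 of the 9 genes, *CDH2*, *CDH4*, *CTNNA1* and *CTNNB1*, and not for *CDH1*, *CDH3*, *CDH11*, *CDH13* and *CTNND1*. The motif CAGGTG was searched on both strands, that is also as CACCTG. It occurred in 0 of 2 windows of *CDH2*, 0 of 4 of *CTNNA1*, 0 of 1 of *CTNNB1* and 1 of 2 of *CDH4*. Of 27305 windows, taken as 1 per gene, 17.5% held it. The members were instead counted over every listed start, and both *CDH4* windows lie inside the span of the gene. The *CDH2* window at the 5′-most start and the *CTNNB1* window are shown as the members with a rise in CSCs and with hardly any change. They stand at chr18:28177131-28177380 (minus strand) and chr3:41199255-41199504 (plus strand), 5′ to 3′, with CpG dinucleotides in capitals.
CDH2: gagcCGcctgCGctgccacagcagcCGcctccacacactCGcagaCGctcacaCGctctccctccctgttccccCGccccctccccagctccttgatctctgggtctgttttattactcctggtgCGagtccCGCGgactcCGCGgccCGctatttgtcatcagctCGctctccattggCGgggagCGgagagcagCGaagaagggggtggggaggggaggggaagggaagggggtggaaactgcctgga
CTNNB1: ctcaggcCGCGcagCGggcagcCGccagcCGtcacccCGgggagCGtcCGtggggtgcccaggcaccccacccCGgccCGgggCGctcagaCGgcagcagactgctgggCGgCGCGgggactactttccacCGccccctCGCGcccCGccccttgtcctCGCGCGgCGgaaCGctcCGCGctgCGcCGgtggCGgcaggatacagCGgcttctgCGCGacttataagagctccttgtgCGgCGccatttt
The *CDH2* window had 66.0% GC and 17 CpG, and the *CTNNB1* window 74.4% GC and 34 CpG, against a median of 11 CpG (quartiles 3 and 23) over the same 27305 windows. These are descriptions of the reference sequence, and no binding or methylation was measured.

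*CDH13* encodes T-cadherin. It reached 51.1, 47.7 and 50.4 FPKM in SUM149PT CSCs, where it was the most abundant of the 6 cadherin genes, and 8.02, 7.19 and 9.02 FPKM in SUM149PT non-CSCs. The HCC1937 CSC libraries had 1.75, 2.15 and 1.66 FPKM and the HCC1937 non-CSC libraries 0.309, 0.361 and 0.718 FPKM. In SUM159PT, at 13.4, 13.4 and 15.9 FPKM, *CDH13* was also the most abundant of these 6. All 5 groups were separate. It rose in CSCs by a log2 fold change of 2.61 (SE 0.095, adjusted p = 6.52e-06) in SUM149PT and of 1.86 (SE 0.280, adjusted p = 0.00639) in HCC1937. The HCC1937 value lies at low FPKM, and with a pseudocount of 1 it was 0.97, under 2-fold.

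*CDH11* encodes OB-cadherin of osteoblasts and other mesenchymal cells. HCC1937 was the line that held it, with 6.07, 5.89 and 6.61 FPKM in CSCs and 2.55, 3.18 and 3.19 FPKM in non-CSCs. Elsewhere it stayed at or below 0.0700 FPKM in SUM149PT and 0.0104 FPKM in SUM159PT, where 1 library listed it at 0. The log2 fold change in HCC1937 was 1.04 (SE 0.112, adjusted p = 0.00196), close to the 2-fold limit. It was 0.99 without CSC replicate 3, 0.94 without non-CSC replicate 1 and 0.86 with a pseudocount of 1, so the call was lost in each case. *CDH4*, which encodes R-cadherin of the retina and brain, did not exceed 0.0849 FPKM in any library and was not tested.

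Of the 9 genes, 7 had a mean of at least 0.1 FPKM and could be tested in SUM149PT. Calls needed an adjusted p no higher than 0.05 and at least a 2-fold change. By this rule 2 of the 7, *CDH2* and *CDH13*, were higher in SUM149PT CSCs, beside 12.8% of 16037 genes tested. Another 2, *CDH1* and *CDH3*, were lower, beside 22.1% of all genes. In HCC1937, 8 could be tested and 3, *CDH2*, *CDH11* and *CDH13*, were higher beside 2.71% of 15582 genes. *CDH1* and *CDH3* were again lower, beside 6% of all genes. The median log2 fold change was -0.20 over the tested members in both lines, and over all tested genes it was -0.11 in SUM149PT and -0.03 in HCC1937. With quantile normalization the SUM149PT median over all genes moved to 0.10 and the share of calls that were higher from 36.5% to 51.2%. Rescaling to equal sums moved the share of higher calls in HCC1937 from 31.1% to 42.2%. The same members were called under each of these scalings. Replicates are not described as separate cultures, so the p-values measure only the spread between these libraries.

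**Figure D4:**
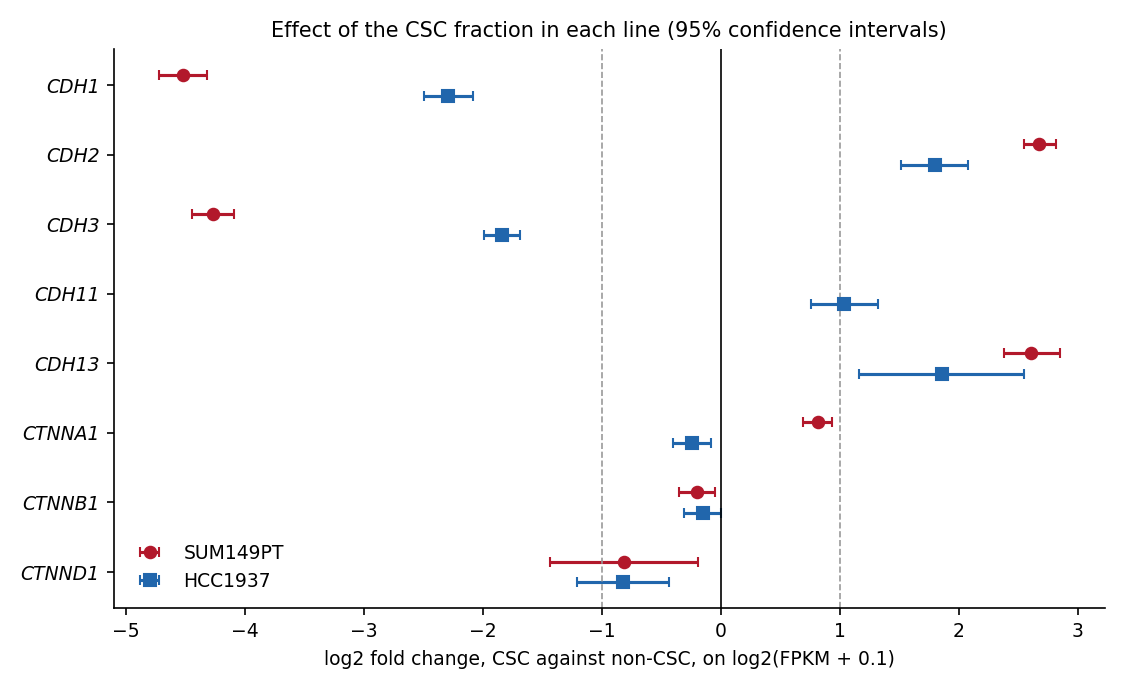
Log2 fold change of CSC against non-CSC on log2(FPKM + 0.1) in SUM149PT (circles) and HCC1937 (squares), with 95% confidence intervals from limma. The dashed lines mark 2-fold, *CDH4* was not tested, and *CDH11* was tested in HCC1937 but not in SUM149PT. The cadherin effects of *CDH1*, *CDH2* and *CDH3* are larger in SUM149PT. The point estimates of the catenins lie within 2-fold, while the intervals of *CTNND1* reach past it in both lines.

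Whether the fractions differed by the same amount in both lines was examined with an interaction term fitted to the 12 libraries of both lines. The difference (SUM149PT minus HCC1937) passed an adjusted p of 0.05 for 5 of 8 tested members, beside 61.1% of 16451 genes, a share that is not set apart from the background. *CDH1* fell further in SUM149PT, with a difference of -2.23 in log2 fold change (SE 0.113, adjusted p = 1.61e-07). *CDH3* gave -2.43 (SE 0.085, adjusted p = 1.77e-08) and *CDH2* 0.88 (SE 0.125, adjusted p = 0.000167). The switch was thus larger in SUM149PT on each of its sides. *CDH13* had a difference of 0.76 (adjusted p = 0.0608). Other settings gave 0.54 to 1.52, the latter with a pseudocount of 1 (adjusted p = 5.62e-06). It passed the limit under 7 of these 13 and without HCC1937 non-CSC replicate 1 (0.95, adjusted p = 0.0202) or replicate 3 (0.45, adjusted p = 0.0458). *CDH11*, which is counted among the 5, had -1.23 (adjusted p = 0.000366). It was too low to test within SUM149PT, so this value restates its HCC1937 effect and shows no differing CSC effect.

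Among the catenins, *CTNNB1* encodes beta-catenin, which also acts with TCF factors in Wnt signalling. It was 54.0, 55.3 and 55.2 FPKM in SUM149PT CSCs and 66.6, 61.5 and 60.9 FPKM in non-CSCs. HCC1937 had 52.2, 50.7 and 51.0 FPKM in CSCs and 58.3, 58.2 and 54.9 FPKM in non-CSCs, and SUM159PT had 8.26, 9.0 and 8.05 FPKM. The means of the sorted groups ran from 51.3 to 63.0 FPKM. The log2 fold change of CSC against non-CSC was -0.20 (95% confidence interval -0.35 to -0.05, adjusted p = 0.0243) in SUM149PT. In HCC1937 it was -0.15 (-0.31 to 0.00, adjusted p = 0.136), and these intervals lie far inside a 2-fold change. The SUM149PT value ran from -0.20 to -0.08 over the other settings, with adjusted p up to 0.23, and up to 0.0717 without 1 library. With the cadherin sum falling, *CTNNB1* per summed *CDH1*, *CDH2* and *CDH3* was 1.84 ± 0.0451 in SUM149PT CSCs and 0.360 ± 0.014 in their non-CSCs. The same ratio was 0.525 ± 0.018 and 0.204 ± 0.00721 in HCC1937.

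*CTNNA1* encodes alpha-E-catenin. Its FPKM was 62.8, 62.6 and 60.8 in SUM149PT CSCs and 34.6, 35.2 and 35.7 in SUM149PT non-CSCs. HCC1937 had 86.6, 84.0 and 84.5 in CSCs and 103.5, 101.7 and 96.5 in non-CSCs, and in SUM159PT 24.2, 24.5 and 27.3. The 5 groups did not overlap. CSCs were higher in SUM149PT (log2 fold change 0.82, SE 0.051, adjusted p = 3.87e-05) and lower in HCC1937 (-0.24, SE 0.063, adjusted p = 0.0424), both under 2-fold. The 2 effects differed by 1.06 on the log2 scale (SE 0.069, adjusted p = 8.47e-07), and the HCC1937 value alone passed 0.05 in some settings only, with adjusted p from 0.00708 to 0.284 across them. It failed 0.05 whichever of the 6 libraries was left out (0.0636 to 0.136), so the fall in HCC1937 is not firm.

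*CTNND1* has to be read with care, since 99.4% of its span on chromosome 11 (chr11:57761802-57819540) lies inside the readthrough gene *TMX2-CTNND1* (chr11:57712523-57819180), which has a row of its own. The *CTNND1* row was 2.78, 2.05 and 4.06 FPKM in SUM149PT CSCs and 5.68, 5.08 and 4.55 FPKM in non-CSCs. In HCC1937 it was 2.74, 3.94 and 2.81 FPKM and 5.87, 5.71 and 5.19 FPKM, and in SUM159PT 0.368, 0.312 and 0.464 FPKM. The readthrough row was far higher, with means of 23.0, 37.4, 31.0, 53.1 and 3.81 FPKM in the same order of groups, so that the *CTNND1* row held 8.01 to 15.2% of the sum in the 15 libraries. How fragments were divided between these rows was not tested, and the level of *CTNND1* is uncertain. As an alternative chosen after the values were seen, the rows were summed. The sum was 25.96 ± 0.77 FPKM in SUM149PT CSCs, 42.5 ± 1.14 in SUM149PT non-CSCs, 34.1 ± 0.823 in HCC1937 CSCs and 58.7 ± 3.42 in HCC1937 non-CSCs. Its log2 fold change was -0.71 (SE 0.055, adjusted p = 9.49e-05) in SUM149PT and -0.78 (SE 0.072, adjusted p = 0.00121) in HCC1937, lower in CSCs but under 2-fold. The *CTNND1* row alone gave -0.81 (SE 0.249, adjusted p = 0.0266) and -0.82 (SE 0.156, adjusted p = 0.0141). Without SUM149PT CSC replicate 3, the row in SUM149PT reached -1.06 (adjusted p = 0.00412) and was called. Without other libraries it went as far as -0.58, and its adjusted p rose to 0.0813 in SUM149PT and 0.0561 in HCC1937, so the pass at 0.05 depended on single libraries. Other settings took it to 0.0545 in SUM149PT.

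The lines also differed in which cadherins they carried, and these comparisons share libraries with those above. Between the CSC fractions, *CDH1* (log2 2.31), *CDH3* (3.44) and *CDH11* were higher in HCC1937, 3 of 8 tested members beside 26.1% of 15952 genes. *CDH13* was lower by a log2 fold change of -4.68 (adjusted p = 1.2e-06), the only such member beside 17.7% of all genes. *CDH2* was within 2-fold (0.37, adjusted p = 0.00125). The share of calls that were higher in HCC1937 CSCs went from 59.6% to 48.9% with the GC trend removed, and the same members were called. Between the non-CSC fractions, *CDH2* (1.25), *CDH3* (1.02), *CDH11* and *CTNNA1* (1.51) were higher in HCC1937, 4 of 8 beside 22% of 16433 genes, and *CDH13* (-3.92) was lower, beside 20.7%. *CDH3* fell under 2-fold in each other scaling (0.85 to 0.92). No fold is given for *CDH11*, since SUM149PT was near 0 FPKM and the size is set by the pseudocount. *CDH1* did not pass the test in the non-CSCs (0.08, 95% confidence interval -0.10 to 0.26, adjusted p = 0.339), so its difference between the CSC fractions was not present in the non-CSCs at a size of more than 0.26.

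SUM159PT was compared with the CSC fraction of each sorted line. The median log2 fold change over all tested genes was -0.76 against SUM149PT CSCs and -0.97 against HCC1937 CSCs. With values as deposited, all 7 tested members were lower than in SUM149PT CSCs, beside 45.6% of 14976 genes, and 0 were higher, beside 21.3%. Against HCC1937 CSCs, 7 of 8 were lower, beside 48.3% of 15515 genes, and 1, *CDH13*, was higher, beside 18.5%. *CDH1* was lower by a log2 fold change of -4.35 (SE 0.119, adjusted p = 3.81e-07) and *CDH3* by -4.15 (SE 0.109, adjusted p = 3.38e-07) against SUM149PT CSCs, and both went well past the median of all genes. The log2 fold change of *CDH2* was -2.89 (SE 0.1) and that of *CTNNB1* -2.69 (SE 0.072).

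How far these differences go depended on the scaling. Upper quartile scaling moved the medians of all genes to -0.09 and -0.15 and left 6 of 7 and 6 of 8 members lower, *CTNNA1* falling under 2-fold (-0.52 and -0.80). With the trend of each library on transcript GC content removed, the medians were -0.02 and -0.01, and 4 and 5 members were lower. *CDH2* was then -0.87 and *CDH13* -0.51 against SUM149PT CSCs, both under 2-fold, and *CTNNA1* -0.11 (adjusted p = 0.197). Against HCC1937 CSCs, *CTNNA1* (-0.36) and *CTNNB1* (-0.91) fell under 2-fold with the GC trend removed. The share of calls that were higher moved from 31.8% to 47.5%, 50.9% and 50.5% with upper quartile scaling, quantile normalization and GC removal against SUM149PT CSCs. It moved to 12.1% when sums were made equal. Against HCC1937 CSCs, this share went from 27.6% to 46.2%, 49.2% and 50.8%, and to 13% with equal sums. *CDH1* and *CDH3* stayed lower than in both CSC groups by a log2 fold change of -2.90 or more in size in all 5 scalings, and *CDH13* stayed higher than in HCC1937 CSCs (1.92 to 4.36). The sizes for *CDH1* and *CDH3* depend on the pseudocount, since SUM159PT is near 0, and with a pseudocount of 1 they were -2.02 and -2.29 against SUM149PT CSCs and -4.06 and -5.52 against HCC1937 CSCs. Cell line and sorting cannot be told apart in these comparisons.

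**Figure D5:**
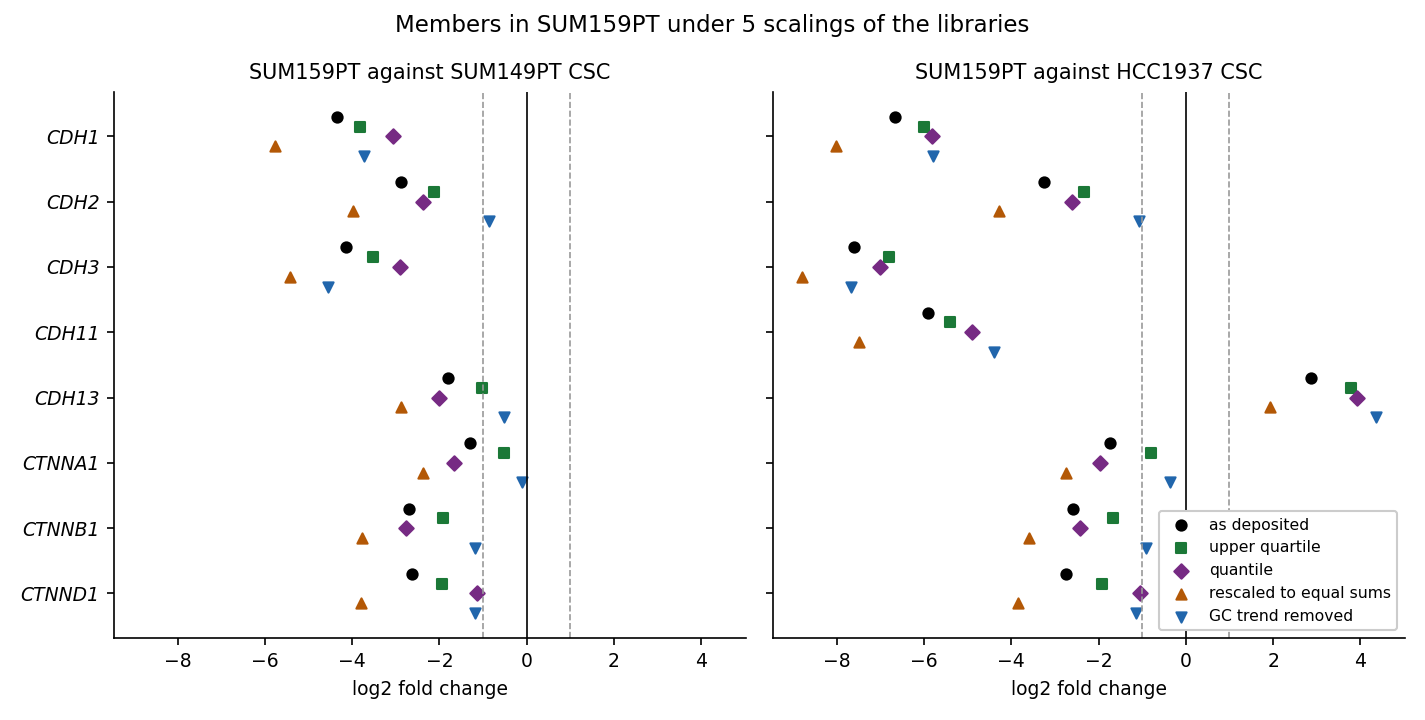
Log2 fold change of SUM159PT against SUM149PT CSCs (left) and HCC1937 CSCs (right) for each tested member, with 1 symbol per scaling of the libraries. The dashed lines mark 2-fold. *CDH1* and *CDH3* lie past 2-fold in all 5 scalings, while *CTNNA1* crosses it. With the GC trend removed, *CDH2* and *CDH13* also lie within 2-fold of SUM149PT CSCs, and *CTNNB1* within 2-fold of HCC1937 CSCs.

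The lists that follow are read beside the share of all genes called, which was 12.8% higher and 22.1% lower in SUM149PT CSCs and 2.71% higher and 6% lower in HCC1937 CSCs. The zinc finger and helix-loop-helix factors known to repress *CDH1* were measured in the same libraries. *ZEB1* was 7.39, 6.43 and 6.63 FPKM in SUM149PT CSCs and 0.778, 0.633 and 0.916 FPKM in non-CSCs. HCC1937 showed 6.77, 7.22 and 7.67 FPKM in CSCs and 1.32, 1.71 and 1.87 FPKM in non-CSCs. *ZEB1* thus rose in the CSCs of both lines (log2 fold change 2.99, adjusted p = 1.23e-05, and 2.09, adjusted p = 0.000464), and so did *ZEB2* (1.98, adjusted p = 8.85e-06, and 2.30, adjusted p = 0.000595). *SNAI2* rose in SUM149PT (1.92, adjusted p = 9.24e-06), with 0.37 (adjusted p = 0.0964) in HCC1937. *SNAI1* was lower in the CSCs of SUM149PT, at 61.9 ± 3.27 FPKM in CSCs and 372.6 ± 5.33 FPKM in non-CSCs (log2 -2.59, adjusted p = 2.23e-06). In HCC1937 it was 9.97 ± 0.833 and 9.19 ± 0.967 FPKM (0.12, adjusted p = 0.483). *TWIST1* was lower in SUM149PT CSCs (-1.02, adjusted p = 0.000346) and higher in HCC1937 CSCs (1.63, adjusted p = 0.000175), though the SUM149PT value fell under 2-fold with a pseudocount of 1, in each other scaling and without any 1 of 3 libraries (-0.95 to -0.98). In all, 3 of the 5 were higher and 2 lower in SUM149PT CSCs, and 3 were higher and 0 lower in HCC1937 CSCs. SUM159PT, the group with the least *CDH1*, had 0.204 ± 0.0782 FPKM of *ZEB1*, 0.158 ± 0.0462 of *ZEB2* and 2.59 ± 0.249 of *SNAI2*, in each case the lowest of the 5 groups as deposited. *SNAI1*, at 7.32 ± 1.24 FPKM, was lowest there too, while *TWIST1*, at 2.40 ± 0.350, was above HCC1937 non-CSCs (0.729 FPKM). The levels of these factors in SUM159PT under the other scalings were not analysed here, and their part in its *CDH1* level was not tested.

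Further cadherins were mostly low. Of 13 other type I and type II cadherins, 7 could be tested in SUM149PT, where 5 were higher and 1 lower in CSCs (median log2 1.21), beside 12.8% and 22.1% of all genes. This count rests on genes near the expression minimum. With a pseudocount of 1, 2 were higher and 0 lower, beside 7.29% and 12.1%. With a mean of at least 1 FPKM 2 of 3 were higher, beside 12% of all genes. It is read for those 2 only, *CDH6* and *CDH12*. *CDH6*, a kidney and neural type II cadherin, was 5.67, 5.57 and 5.88 FPKM in CSCs and 0.542, 0.483 and 0.635 FPKM in non-CSCs (log2 3.16, adjusted p = 3.91e-06). *CDH12*, a brain cadherin, gave 2.81 (adjusted p = 0.00046). In HCC1937, 3 of the 13 could be tested, with 0 higher and 1 lower (0 with a pseudocount of 1). The lower one in both lines was *CDH5*, the endothelial cadherin, at 0.630 ± 0.0506 FPKM in SUM149PT non-CSCs and 0.0124 ± 0.0147 in their CSCs, and at 0.301 ± 0.0534 and 0.0706 ± 0.058 FPKM in HCC1937. The HCC1937 call of *CDH5* was lost without CSC replicate 2, non-CSC replicate 1 or non-CSC replicate 3 (adjusted p 0.0515 to 0.0596). With a pseudocount of 1 *CDH5* was under 2-fold in SUM149PT (-0.69) and in HCC1937 (-0.28). Of 6 atypical cadherins 1 was tested in each line, *CDH26*, which was lower in SUM149PT CSCs (-2.99, adjusted p = 2.13e-05) and -0.38 (adjusted p = 0.453) in HCC1937. It too was under 2-fold in SUM149PT with a pseudocount of 1 (-0.89).

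Among 8 other catenins and armadillo partners, 5 were tested and 0 were called in SUM149PT with FPKM as deposited, where the median log2 was 0.23. In HCC1937, 0 were higher and 2 lower. These were *JUP*, which encodes plakoglobin and can take the place of beta-catenin at junctions, and *ARVCF*, a relative of p120-catenin. *JUP* was 61.5 ± 1.5 FPKM in HCC1937 CSCs and 161.6 ± 3.49 in non-CSCs (log2 -1.39, adjusted p = 0.00017). In SUM149PT it was 39.9 ± 2.53 and 75.2 ± 1.37 FPKM (-0.91, adjusted p = 6.97e-05, under 2-fold). SUM159PT had *JUP* at 67.7 ± 3.90 FPKM as deposited, and its level under the other scalings was not analysed here. *ARVCF* gave -1.11 (adjusted p = 0.000756) in HCC1937 and 0.99 (adjusted p = 0.000134) in SUM149PT. The SUM149PT value of *ARVCF* was a call with a pseudocount of 0.01 (1.07), in each other scaling (1.07 to 1.45) and without CSC replicate 3 (1.07). Its HCC1937 call was lost with a pseudocount of 1 (-0.72) and with the GC trend removed (-0.94).

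The next list held nectins, afadin and the proteins that tie junctions to actin and microtubules. Of 15 tested in SUM149PT, 4 were higher and 4 lower in CSCs, beside 12.8% and 22.1% of all genes, so the lower ones are near the background. Of 14 in HCC1937, 1 was higher and 4 lower, beside 2.71% and 6%. A pseudocount of 1 left 3 and 3 in SUM149PT, beside 7.29% and 12.1% of all genes. It left 1 and 2 in HCC1937, beside 1.02% and 3%. *CAMSAP3*, which anchors microtubules at adherens junctions, fell in both lines, by -4.44 (adjusted p = 1.51e-06) in SUM149PT and -1.53 (adjusted p = 0.000438) in HCC1937. *PLEKHA7*, its partner at p120-catenin, fell too, by -2.92 (adjusted p = 9.21e-06) and -1.26 (adjusted p = 0.00136), the latter under 2-fold with a pseudocount of 1 (-0.65). The nectin gene *PVRL4* moved in opposite directions, at 38.0 ± 2.28 FPKM in SUM149PT CSCs against 17.7 ± 0.361 in non-CSCs, and 2.31 ± 0.283 against 18.1 ± 1.54 in HCC1937. *PVRL3* rose in HCC1937 (1.61, adjusted p = 0.00148) and stood at the 2-fold limit in SUM149PT (1.01, adjusted p = 0.000468), where it fell under it without CSC replicate 2, non-CSC replicate 2 or non-CSC replicate 3 (0.93 to 0.97), with a pseudocount of 1 (0.79) and with the GC trend removed (0.96). Of 12 genes for cadherin cleavage, uptake and recycling, 3 were higher and 1 lower in SUM149PT CSCs, beside 12.8% and 22.1% of all genes. None of the 12 was called in HCC1937, beside 2.71% and 6%, which is not set apart from the background. *GNA12*, a G protein subunit that binds cadherin tails, had 1.53 (adjusted p = 6.17e-06) and *NUMB*, an endocytic adaptor, 1.48 (adjusted p = 6.9e-06) in SUM149PT.

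The beta-catenin destruction complex showed 1 of 8 genes higher and 0 lower in SUM149PT CSCs and 0 called in HCC1937. That gene was *AXIN2*, which is itself a TCF target, at 1.12 ± 0.112 FPKM in SUM149PT CSCs and 0.177 ± 0.0237 in non-CSCs (log2 2.14, adjusted p = 1.42e-05), and it was under 2-fold with a pseudocount of 1 (0.85). In HCC1937 *AXIN2* had 0.83 (adjusted p = 0.0269), and it was called without CSC replicate 3 (adjusted p = 0.0136), with a pseudocount of 0.01 (1.01) and with equal sums (1.07). Of the genes known as beta-catenin and TCF targets, *AXIN2* included, 3 of 10 were higher and 3 lower in SUM149PT CSCs, and 0 of 7 higher and 1 lower in HCC1937 CSCs. The shares of all genes were 12.8% and 22.1% in SUM149PT and 2.71% and 6% in HCC1937, and counts this small are not set apart from them. A pseudocount of 1 left 2 higher and 0 lower in SUM149PT, beside 7.29% and 12.1% of all genes. It left 0 in HCC1937, beside 1.02% and 3%. *NOTUM*, a secreted Wnt inhibitor, rose (2.17, adjusted p = 7.27e-05) and *NKD1*, an intracellular one, fell (-2.40, adjusted p = 5.61e-05) in SUM149PT, *NKD1* under 2-fold with a pseudocount of 1 (-0.73). *RNF43*, which removes Wnt receptors, fell in HCC1937 (-1.92, adjusted p = 0.000235), and was under 2-fold with a pseudocount of 1 (-0.69).

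Markers of cell identity were read in the same libraries. Of 7 epithelial genes, 6 were lower in the CSCs of each line, with a median log2 of -3.02 in SUM149PT and -1.40 in HCC1937. Their summed FPKM was 189.7, 198.9 and 194.9 in SUM149PT CSCs and 2315, 2240 and 2243 in non-CSCs, and 716.3, 663.2 and 600.6 against 1762, 1775 and 1514 in HCC1937. *EPCAM* was 2.48 ± 0.508 FPKM in SUM149PT CSCs, 55.4 ± 4.35 in SUM149PT non-CSCs, 17.7 ± 0.858 in HCC1937 CSCs, 83.6 ± 9.31 in HCC1937 non-CSCs and 0.0467 ± 0.0225 in SUM159PT, in the same order as *CDH1*. Of the keratins, *KRT14* was not called in either line (-0.59 and -0.64). *KRT19* was at -4.75 (adjusted p = 1.4e-06) in SUM149PT and -2.29 (adjusted p = 0.000834) in HCC1937 and *KRT5* at -4.62 (adjusted p = 1.4e-06) and -1.33 (adjusted p = 0.000244). SUM159PT had summed epithelial markers of 293.9, 278.1 and 292.7 FPKM as deposited, of which *KRT18* was the most abundant at 153.1 FPKM. Only 4 of the 7 reached 1 FPKM in any of its libraries. Against SUM149PT CSCs, 5 of the 7 were lower and 2 higher, beside 45.6% and 21.3% of all genes. Against HCC1937 CSCs, 4 were lower and 0 higher, beside 48.3% and 18.5%.

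Of 7 fibroblast markers, 4 of 6 tested were higher and 1 lower in SUM149PT CSCs, and 1 of 3 higher in HCC1937 CSCs. Their sum was 242, 244.3 and 238.7 FPKM in SUM149PT CSCs, led by *COL1A1* at 216 FPKM, and 67.4, 68.9 and 71.0 FPKM in non-CSCs. In HCC1937 it was 12.5, 12.8 and 11.8 FPKM in CSCs and 6.12, 7.29 and 7.84 FPKM in non-CSCs, and in SUM159PT 42.6, 47.7 and 45.7 FPKM. *PDGFRA* rose (3.11, adjusted p = 2.19e-05) and *DCN* fell (-3.10, adjusted p = 3.62e-06) in SUM149PT CSCs, and *COL1A2* rose in HCC1937 CSCs (1.58, adjusted p = 0.00292, and 0.60 with a pseudocount of 1). *PDGFRA* and *DCN* were listed at 0 in all HCC1937 non-CSC libraries. Of 5 leukocyte markers, 2 were lower in SUM149PT CSCs and 0 were called in HCC1937. *CD14* (-4.23, adjusted p = 3.8e-06) and *CD68* (-1.57, adjusted p = 5.11e-06) carried this. In HCC1937 *CD14* was 0.99, just under 2-fold as deposited, and was called in each other scaling (1.05 to 1.12) and without CSC replicate 3 (1.07) or non-CSC replicate 2 (1.05). The marker sum was 18.2 to 19.3 FPKM in SUM149PT CSCs and 95.6 to 102.7 in non-CSCs. In HCC1937 the leukocyte sum was 93.5 to 107.8 FPKM in CSCs and 67.4 to 72.5 FPKM in non-CSCs, and in SUM159PT 47.7 to 54.0 FPKM. *PTPRC* did not exceed 0.0986 FPKM in any library, and *CD3E* was listed at 0 in all. A listed 0 is not read as absence here, since *DLG5*, a broadly expressed gene, was listed at 0 in all libraries too. Of 5 endothelial markers, 3 of 3 tested were lower in SUM149PT CSCs and 1 of 2 in HCC1937 CSCs. With a pseudocount of 1 it was 0 in each line, and none could be tested with a mean of at least 1 FPKM, so no change of these markers is read. They summed to at most 1.83 FPKM in any library, the most abundant being *VWF* at 0.701 FPKM in SUM149PT non-CSCs (-2.48, adjusted p = 3.87e-06, and -0.70 with a pseudocount of 1), and *TEK* was listed at 0 there. The part of other cell types in the cadherin results was not tested.

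Genes with the most similar pattern were ranked by Pearson correlation of log2(FPKM + 0.1) over the 15 libraries among 12164 genes that averaged 1 FPKM or more. The libraries form 5 groups, so the values rest mainly on 5 group means and serve as a description. *CDH1* was close to *ST14* (r = 0.998) and *UCA1* (0.997). *CDH3* was closest to *NDFIP2* (0.998), *MAL2* (0.997) and *EPCAM* (0.996). For *CDH2* these were *IFT172* (0.988), *ANXA5* (0.982) and *SPRY2* (0.982). *CDH1* and *CDH3* had r = 0.989 with each other, while *CDH1* and *CDH2* had r = 0.185 over the 15 libraries.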

How the data were processed

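The authors supplied a deposited table of FPKM values with 33158 gene symbols, and their processing notes name Bowtie2 and GRCh38, while the quantification tool is not given in the sources used here. All 15 columns were matched to a library by line, fraction and replicate number. The fits used limma 3.58.1 in R 4.3.3 (lmFit and default eBayes) on log2 of FPKM plus 0.1, on the libraries of each comparison, for genes averaging 0.1 FPKM or more. P-values were adjusted by Benjamini-Hochberg over all genes tested. The 7 comparisons share libraries. The limit of 0.05 replaced the study limit of 0.0001, which was kept as an alternative. At 0.0001 an earlier limma fit of the deposited values gave no call in HCC1937, although the paper reports calls there. Differences between lines needed an adjusted p no higher than 0.05, with no limit on size. Read depth is unknown, and the precision rests on 3 libraries a group. Low values, under 0.03 FPKM, were compared with SUM149PT CSC replicate 1. The most frequent ratio held 22.6% of such genes for SUM149PT CSC replicate 2 and at most 9.91% for any other library. No step common to all libraries was found.

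The members and lists were chosen with earlier results of these data known. From each list, up to 2 called genes per line with the largest change and no overlap between fractions are named, with the repressors of *CDH1* and *JUP* in any case. Genes most like *CDH1*, *CDH2* and *CDH3* are the 3 with the highest correlation, of which 1 is not reported here. Other genes named, the list genes *CD44*, *COL1A1*, *CD3E*, *PTPRC*, *KRT14*, *KRT18*, *TEK* and *DLG5* and the readthrough gene *TMX2-CTNND1*, were chosen after their values were seen.

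Alternatives were the pseudocount (0.01 and 1), the expression minimum (none and 1 FPKM), upper quartile, quantile and equal-sum (TPM) scaling, removal of each library's trend on GC content (GENCODE release 29, lowess, known for 73.7% of genes and all 9 members), eBayes with a trend, a single fit of the 15 libraries, a replicate block, and leaving out each library. The sum of *CTNND1* and *TMX2-CTNND1* was added after the data were seen. Tables and figures were made with Python 3.11.15, pandas 2.3.3 and matplotlib 3.10.9.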

Additional observations from a re-analysis of the deposited data

Results flagged for a closer look

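The results here are those in which SUM149PT and HCC1937 had different CSC effects in the limma interaction over 12 libraries, and 61.1% of all genes tested passed the same limit. Each value is the log2 fold change in SUM149PT minus that in HCC1937, and none was weighed against an explanation.

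Among the members, the differences were *CDH1* at -2.23 (adjusted p = 1.61e-07), *CDH3* at -2.43 (adjusted p = 1.77e-08) and *CDH11* at -1.23 (adjusted p = 0.000366). Positive values were found for *CDH2* at 0.88 (adjusted p = 0.000167) and *CTNNA1* at 1.06 (adjusted p = 8.47e-07). Other cadherins gave *CDH6* at 3.05 (adjusted p = 1.81e-07), *CDH12* at 2.77 (adjusted p = 0.000101), *CDH5* at -1.43 (adjusted p = 0.00179) and *CDH26* at -2.60 (adjusted p = 0.00026). With a pseudocount of 1 the difference of *CDH26* was -0.79. *CDH11* was too low to test within SUM149PT, so its value restates the HCC1937 effect. The 2 neural cadherins *CDH6* and *CDH12* were not tested within HCC1937, where they were near 0 FPKM, and their values restate the SUM149PT effect.

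The catenin relatives had *JUP* at 0.48 (adjusted p = 0.00057) and *ARVCF* at 2.10 (adjusted p = 3.55e-07). Junction linkers and nectins had *CAMSAP3* at -2.90 (adjusted p = 6.46e-08), *PLEKHA7* at -1.66 (adjusted p = 2.27e-05), *PVRL4* at 4.01 (adjusted p = 1.35e-08) and *PVRL3* at -0.61 (adjusted p = 0.0267), and the turnover genes *GNA12* at 0.95 (adjusted p = 1.89e-05) and *NUMB* at 1.40 (adjusted p = 2.56e-07). *PVRL3* lost its place without HCC1937 CSC replicate 2 or 3, SUM149PT CSC replicate 3 or SUM149PT non-CSC replicate 1 (adjusted p 0.0509 to 0.0609), and with quantile normalization (-0.44, adjusted p = 0.0819).

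Repressors of *CDH1* gave *ZEB1* at 0.90 (adjusted p = 0.00305), *SNAI1* at -2.71 (adjusted p = 8.48e-08), *SNAI2* at 1.55 (adjusted p = 1.44e-05) and *TWIST1* at -2.64 (adjusted p = 1.35e-07). Beta-catenin targets gave *AXIN2* at 1.31 (adjusted p = 0.000618), *NKD1* at -2.04 (adjusted p = 2.25e-05), *NOTUM* at 2.35 (adjusted p = 7.5e-05) and *RNF43* at 1.12 (adjusted p = 6.02e-05). With a pseudocount of 1 the difference of *RNF43* was 0.10 (adjusted p = 0.35).

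Epithelial markers gave *KRT19* at -2.46 (adjusted p = 4.04e-06), *KRT5* at -3.30 (adjusted p = 7.15e-09) and *EPCAM* at -2.21 (adjusted p = 5.72e-06). Fibroblast markers gave *PDGFRA* at 2.99 (adjusted p = 6.75e-07), *DCN* at -3.38 (adjusted p = 2.69e-08) and *COL1A2* at -0.99 (adjusted p = 0.00837), leukocyte markers *CD14* at -5.22 (adjusted p = 1.28e-08) and *CD68* at -1.65 (adjusted p = 1.11e-07), and the endothelial marker *VWF* at -2.02 (adjusted p = 1.19e-06). *PDGFRA*, *DCN* and *VWF* were too low to test within HCC1937, so their values rest mainly on the SUM149PT effect. *COL1A2* was too low to test within SUM149PT, but its value is smaller in size than its HCC1937 effect. Its low mean also rose in SUM149PT, from 0.0339 FPKM (non-CSC) to 0.102 FPKM (CSC). *COL1A2* no longer passed 0.05 with a pseudocount of 0.01 (-0.54, adjusted p = 0.388), quantile normalization (-0.48, adjusted p = 0.121) or equal sums (-0.86, adjusted p = 0.0641). The sort markers were *CD24* at -1.48 (adjusted p = 1.28e-06) and *CD44* at 0.27 (adjusted p = 0.0248). *CD44* passed 0.05 no longer without HCC1937 CSC replicate 2, HCC1937 non-CSC replicate 3, SUM149PT CSC replicate 3 or SUM149PT non-CSC replicate 3 (adjusted p 0.0557 to 0.0602), with quantile normalization (adjusted p = 0.0611) or with equal sums (adjusted p = 0.193).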

How the results depend on the processing

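Apart from leaving out libraries, 1746 results for single genes kept their direction and their side of the limit, 75 no longer passed it, 18 passed it newly and 13 changed sign. Of the counts, 167 stayed within 1.5 times the reported one and 15 did not. Where nothing else is said, the cause was not tested.

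At the study limit, genes called went from 5596 to 3292 in SUM149PT, from 10053 to 2922 for the difference between lines, from 6994 to 4378 between CSC fractions and from 7021 to 4508 between non-CSC fractions. In HCC1937 limma called 0 genes and 0 members there, its smallest adjusted p being 0.000128, while 5886 of 15582 genes had an unadjusted p under 0.05. The paper itself reports genes that differ between the HCC1937 fractions at this limit, which the fit here did not recover. The difference between lines kept 3 members, losing *CDH2* and *CDH11*. With a pseudocount of 1, which shrinks changes at low FPKM, the counts were 3109 in SUM149PT, 626 in HCC1937 (with 3 members, without *CDH11* and *CDH13*), 4287 between CSC and 4269 between non-CSC fractions. With a mean of 1 FPKM or more, which tests fewer genes, they were 3623 and 872. SUM159PT against SUM149PT CSCs kept 4 of 7 members with the GC trend removed.

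Signs changed where values were near 0. *NOTUM* in HCC1937 was 0.01 with the GC trend removed and -0.35 to 0.04 without 1 library. For the difference between lines, *ZEB2* was 0.00 with a pseudocount of 1, *CTNNB1* 0.01 with the GC trend removed, and *CTNND1* -0.08 with equal sums and -0.24 to 0.24 without 1 library. Between CSC fractions, *CTNND1* was -0.04 (upper quartile), -0.05 (quantile), -0.06 (GC) and -0.10 to 0.37 without 1 library. Between non-CSC fractions, *CDH1* was -0.06 (upper quartile), -0.05 (quantile), -0.09 (equal sums) and -0.05 (GC), and *CTNND1* was -0.00 (upper quartile) and -0.03 (equal sums).

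With a replicate block, 5584 genes were called in SUM149PT, 1268 in HCC1937 and 9865 for the difference between lines. Against SUM159PT it gave 10028 (SUM149PT CSCs) and 10422 (HCC1937 CSCs), and between lines 6954 (CSCs) and 6991 (non-CSCs). It changed 0 of 54 member results. Both fractions of a line carry the same replicate numbers, and whether equal numbers mark a shared culture is not stated. Deviations of equally numbered libraries had correlations of 0.022 to 0.143 between the SUM149PT fractions, and differently numbered ones -0.199 to 0.065. In HCC1937 these were -0.130 to -0.028 and -0.085 to 0.127. With 3 libraries a group, these values cannot decide whether the fractions were paired.

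Leaving out 1 library kept 1069 results for single genes on their side, ended 19 calls, made 7 and turned 9 signs. Depth is unknown, so counting error at low FPKM could not be given.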
